A study of Mus musculus with 3 samples.

Results

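Acta2, which encodes smooth muscle alpha actin, was detected in 137 of 42216 cells of mouse salivary gland organoids (0.325%). A cell was counted as Acta2 positive when its barcode held at least 500 detected genes, at most 20% of unique molecular identifiers (UMIs) from mitochondrial genes, and at least 1 UMI of Acta2. There were 43 such cells among 13956 in the proton library, 71 among 15041 in the photon library and 23 among 13219 in the control library. The other 42079 kept cells served for comparison. The cells were selected on their Acta2 UMI count, so the level of Acta2 and the share of positive cells are a description and were not tested.

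The organoids were 3-dimensional cultures grown in Matrigel from submandibular gland cells of 4 C57BL/6 mice aged 8 to 12 weeks. One culture arm received 7 Gy of protons (plateau of the beam) on day 5, another received 7 Gy of photons on day 5, and the control arm was not irradiated. All arms were collected on day 11, dissociated with trypsin, sorted for cells that exclude propidium iodide (45000 per sample), and sequenced by droplet 3' single-cell RNA sequencing as 1 library each. The medium of all arms contained Y27632, dexamethasone, insulin, N2, EGF, FGF2 and conditioned media of R-spondin1 and Wnt3a. Animals were pooled and no label assigns a cell to its animal, so differences between arms are differences between libraries and no test was made of them.

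Myoepithelial cells are epithelial cells that wrap acini and intercalated ducts of the salivary gland and contract to help expel saliva. They carry the keratins of basal epithelium together with the contractile apparatus of smooth muscle: alpha actin, the myosin heavy chain Myh11, the light chain Myl9, the kinase Mylk that phosphorylates it, calponin (Cnn1), transgelin (Tagln), caldesmon (Cald1) and tropomyosins. Genes of this apparatus are classic targets of serum response factor (SRF), which with its cofactors of the myocardin family binds a DNA element called the CArG box, and whose activity follows the state of the actin cytoskeleton.

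The CArG box was looked for by a script on both strands in the RefSeq promoter windows (build GRCm38.p6) of 12 contractile and cytoplasmic actin or myosin genes, of which 9 had a window. The windows of 3 contractile genes are shown because each holds 2 matches. Each covers the 250 bases before the start annotated in RefSeq, and capitals mark matches to the CArG box with up to 1 mismatch. GENCODE M21, used for the gene coordinates below, places the starts of Acta2, Myl9 and Tpm1 at 34255590, 156775420 and 67049406. These lie inside the windows, so by that annotation part of each window is within the gene.
Acta2, chr19:34255374-34255623, minus strand: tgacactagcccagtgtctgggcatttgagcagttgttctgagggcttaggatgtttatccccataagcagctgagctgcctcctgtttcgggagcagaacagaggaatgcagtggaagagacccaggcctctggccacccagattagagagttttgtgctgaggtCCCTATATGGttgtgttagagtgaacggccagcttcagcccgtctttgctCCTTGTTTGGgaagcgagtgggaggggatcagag
Myl9, chr2:156775214-156775463, plus strand: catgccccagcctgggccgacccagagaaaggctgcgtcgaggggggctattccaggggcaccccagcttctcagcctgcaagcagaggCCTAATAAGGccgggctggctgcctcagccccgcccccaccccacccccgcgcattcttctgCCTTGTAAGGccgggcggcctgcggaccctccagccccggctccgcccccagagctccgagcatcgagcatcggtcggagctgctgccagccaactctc
Tpm1, chr9:67049214-67049463, minus strand: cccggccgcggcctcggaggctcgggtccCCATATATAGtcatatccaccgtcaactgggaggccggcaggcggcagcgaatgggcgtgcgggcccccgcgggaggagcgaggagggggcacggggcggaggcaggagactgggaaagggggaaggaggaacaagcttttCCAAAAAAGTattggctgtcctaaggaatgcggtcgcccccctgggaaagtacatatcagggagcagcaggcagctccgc
The Acta2 window held 2 matches with up to 1 mismatch, starting 84 and 34 bases before the RefSeq start, and no exact match (0). The Myl9 window held 1 exact match and 1 with a mismatch, and the Tpm1 window 2 with a mismatch. No match with up to 1 mismatch (0) lay in the windows of Cnn1, Mylk and Tpm2. One of the 2 windows of Cald1 held 1 match with a mismatch, and the cytoplasmic genes Actg1 and Myl6 each held 1 exact match in a window, so that matches were not limited to contractile genes. Among all 32851 windows of 300 bases, 1.63% held an exact match and 21.1% a match with up to 1 mismatch. A match is a description of the letters and not a measured site.

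The 137 cells held 401 Acta2 UMIs, and 85 of the cells held exactly 1. The remaining 52 cells held 2 or more, and 23 held 5 or more. At the edge of the rule stand 32 proton, 40 photon and 13 control cells with 1 UMI on the inside, and the 42079 cells with 0 on the outside. The highest cells held 20 Acta2 UMIs in the proton library, 20 in the photon library and 21 in the control library. Summed over positive cells, Acta2 (ENSMUSG00000035783, chromosome 19, 34241090 to 34255590, minus strand, GRCm38) stood at 692 CPM (UMIs of the gene scaled to a common total of UMIs) in the proton library, 977 CPM in the photon library and 1009 CPM in the control library. The 3 libraries thus all held a long tail of cells with many Acta2 UMIs above a majority with 1.

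**Figure D1:**
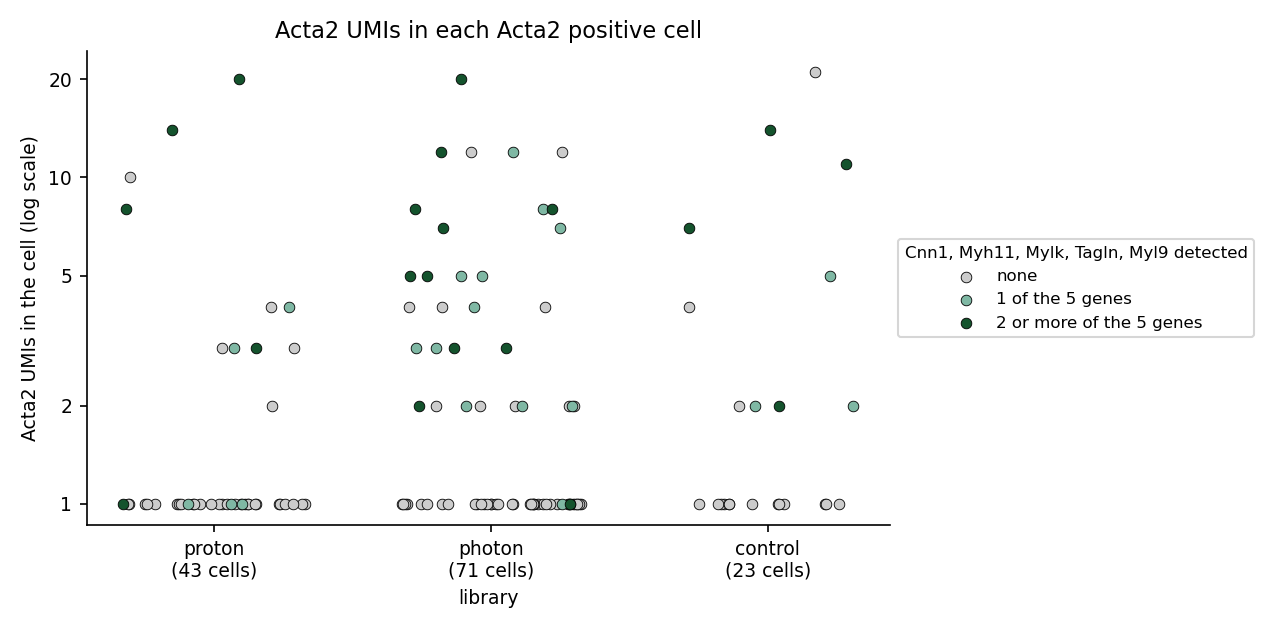
Each point is 1 Acta2 positive cell, with its Acta2 UMIs on a log axis, in the proton (43 cells), photon (71 cells) and control (23 cells) libraries. Shading gives how many of Cnn1, Myh11, Mylk, Tagln and Myl9 had a UMI in the same cell, and darker points gather toward higher Acta2 UMIs in each library, while the control cell with 21 Acta2 UMIs had none of the 5.

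Median depth per cell was 2454 UMIs for positive cells of the proton library against 2222 for the remaining cells, 2747 against 2808 in the photon library, and 2556 against 2757 in the control library. A deeper cell has more chances to show an Acta2 UMI, so each positive cell was set beside the 10 remaining cells of its own library nearest in total UMIs, which gave 1370 depth-matched cells. Of the positive cells, 15 lay above the 95th percentile of UMIs of their library (8 proton, 5 photon, 2 control). Doublets were not called or removed. The libraries shared 57 (proton and photon), 61 (proton and control) and 55 (photon and control) barcode sequences, none of them (0) of a positive cell. Ranges in parentheses after a share or a ratio are exact 95% intervals that cover counting error only.

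The first question was whether the other contractile genes came along with Acta2. At least 1 UMI of Cnn1, Myh11, Mylk, Tagln or Myl9 was seen in 40 of 137 positive cells (29.2%, 21.7 to 37.6), against 22 of 1370 depth-matched cells (1.61%, 1.01 to 2.42). At least 2 of these 5 genes were seen in 20 positive cells (14.6%, 9.15 to 21.6), against 0 of 1370 depth-matched cells and 1 of all 42079 remaining cells. At least 3 were seen in 6 positive cells. By library, at least 1 of the 5 genes was seen in 10 of 43 proton (23.3%), 23 of 71 photon (32.4%) and 7 of 23 control (30.4%) positive cells. In the depth-matched cells the shares were 1.16% in the proton library, 1.55% in the photon library and 2.61% in the control library. With Myl9 left out, at least 1 of the other 4 genes was seen in 31 of 137 positive cells (22.6%, 15.9 to 30.6). The share in depth-matched cells was then 1.53% (0.951 to 2.33). By library it was 20.9% of proton, 25.4% of photon and 17.4% of control positive cells. Most cells with an Acta2 UMI thus showed none of the 5 genes. At this depth a count of 0 does not show that a cell lacks them, and the cells are called Acta2 positive here.

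Co-detection went with the number of Acta2 UMIs. At least 1 of the 5 genes was seen in 6 of 85 cells with 1 Acta2 UMI (7.06%, 2.63 to 14.7), in 15 of 29 cells with 2 to 4 (51.7%, 32.5 to 70.6) and in 19 of 23 cells with 5 or more (82.6%, 61.2 to 95.05). With Myl9 left out the shares were 5.88%, 34.5% and 69.6% in the same order. Median depth in these classes was 2769, 1888 and 2944 UMIs, so the middle class was the shallowest. A Tagln UMI was seen in 3.53% of cells with 1 Acta2 UMI, 13.8% of those with 2 to 4 and 52.2% of those with 5 or more. For Myl9 the shares were 3.53%, 31.0% and 60.9% in the same order of classes. Since the classes are set by the gene of the rule, these shares are a description.

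**Figure D2:**
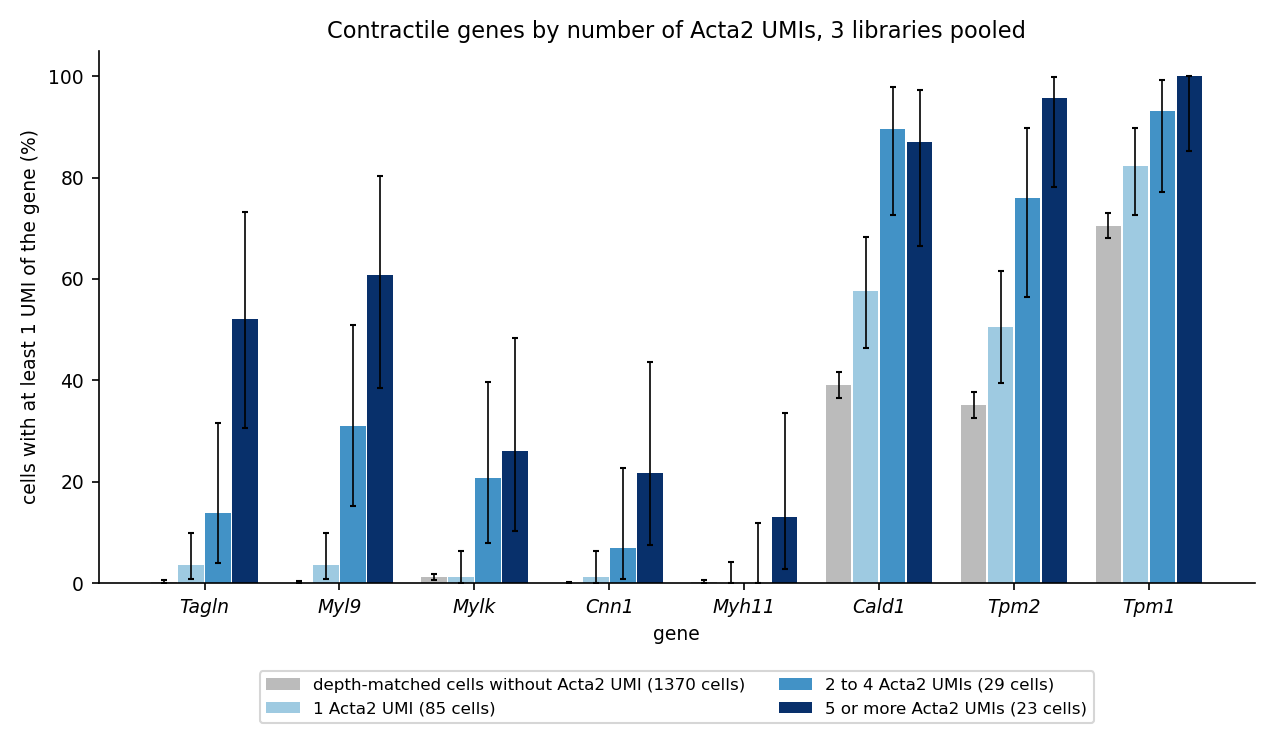
Bars give the percentage of cells with at least 1 UMI of each contractile gene in depth-matched cells without an Acta2 UMI (1370 cells) and in cells with 1 (85 cells), 2 to 4 (29 cells) and 5 or more (23 cells) Acta2 UMIs, pooled over the 3 libraries, with exact 95% binomial intervals. Tagln, Myl9, Mylk, Cnn1 and Myh11 were near 0 in depth-matched cells, and Tpm1 reached 100% of cells in the class with 5 or more Acta2 UMIs.

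Differences over all genes were tested on counts summed per library and class with edgeR's quasi-likelihood test, with the library as a block and Benjamini-Hochberg adjustment over 6845 genes. In all, 167 genes (2.44% of those tested) were higher and 57 (0.833%) were lower in Acta2 positive than in depth-matched cells at an adjusted p below 0.05. Against all remaining cells of the same libraries the test of 13618 genes called 171 higher (1.26%) and 225 lower (1.65%), of which 131 and 55 were also called against depth-matched cells. Without the photon library, 59 genes were higher and 3 lower. Without cells above the 95th percentile of UMIs, 149 were higher and 52 lower, of which 129 and 33 were among those called with them. Among the 17 contractile genes measured besides Acta2, 7 passed the filter on low counts, of which 6 were higher and 0 lower; their median log2 fold change was 1.78, against -0.03 over all genes tested. A gene silent in most cells passes that filter only through the class where it is high. Without the filter, where 17301 genes were tested and 169 (0.977%) were higher and 104 (0.601%) lower, 14 contractile genes were tested and 7 were higher. Against all remaining cells 12 were tested and 9 were higher.

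Among the actin- and myosin-binding proteins, Tagln (ENSMUSG00000032085, chromosome 9, 45929619 to 45936058, minus strand) stood at 104 CPM in positive cells of the proton library, 194 CPM in the photon library and 48.6 CPM in the control library. In depth-matched cells it stood at 0 CPM in the proton library, 1.38 CPM in the photon library and 1.22 CPM in the control library. Tagln was thus higher in the sum of positive cells of each library, while most positive cells had no Tagln UMI (5 of 43 proton, 12 of 71 photon and 2 of 23 control cells had one). The 62 UMIs in positive cells and 4 in depth-matched cells give a ratio of 155 (57.6 to 587), and the edgeR log2 fold change was 7.08 ± 0.49 (SE, 3 libraries; adjusted p = 1.08e-12).

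Myl9 (ENSMUSG00000067818, chromosome 2, 156775420 to 156781658, plus strand), the regulatory light chain of smooth muscle myosin, stood at 58.8, 124 and 109 CPM in positive cells of the proton, photon and control libraries. It stood at 0, 0 and 1.22 CPM in the depth-matched cells of the same libraries. With 45 UMIs against 1, the ratio was 450 (76.8 to 1.82e+04), and the log2 fold change was 8.08 ± 0.65 (edgeR adjusted p = 2.69e-11).

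Cnn1 (ENSMUSG00000001349, chromosome 9, 22099216 to 22109630, plus strand), which encodes calponin, had 5 UMIs in 4 proton cells, 4 in 3 photon cells and 1 in 1 control cell among the positive cells, and 0 in all depth-matched cells. Set against the floor of 3 counts over the depth-matched cells, it was at least 33.3-fold higher. It was too low for the filtered test and passed the unfiltered edgeR test with an adjusted p of 0.00242. Myh11 (ENSMUSG00000018830, chromosome 16, 14194535 to 14291372, minus strand) had 0 UMIs in proton, 1 in photon and 3 in control positive cells, against 0, 0 and 2 in depth-matched cells. It was not past the threshold in the unfiltered test (edgeR adjusted p = 0.699), and all 3 cells with a Myh11 UMI held at least 5 Acta2 UMIs.

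Mylk (ENSMUSG00000022836, chromosome 16, 34745210 to 35002420, plus strand), the myosin light chain kinase, stood at 19.6 CPM in the positive cells of the proton library, 36.9 CPM in the photon library and 36.5 CPM in the control library. In depth-matched cells its levels were 3.92, 4.61 and 2.43 CPM in the same libraries. Its ratio was 7.78 (3.58 to 16.6) and its log2 fold change 2.94 ± 0.66 (edgeR adjusted p = 0.00477), and it was too low for the filtered test without the photon library. Mylk also had UMIs in 317 of all remaining cells, so it was the least particular of the 5 genes in its share of cells. Smtn (smoothelin) did not pass the test, at 19.6, 0 and 12.2 CPM in positive cells and 22.8, 23.5 and 29.2 CPM in depth-matched cells (proton, photon, control; edgeR adjusted p = 0.397). Desmin (Des), the oxytocin receptor (Oxtr) and cardiac actin (Actc1) had 0 UMIs in every positive cell.

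Other listed members were sparse. Lmod1 (leiomodin, an actin nucleator) had 1 UMI in proton, 2 in photon and 4 in control positive cells against 1, 2 and 2 in depth-matched cells, a ratio of 14.0 (3.83 to 56.0). It passed the edgeR test only against all remaining cells (adjusted p = 0.00339). Synpo2 (an actin-bundling protein) had 4 UMIs in positive cells and 0 in depth-matched cells and likewise passed only there (adjusted p = 0.0465). Lmod1 stood at 0.685 CPM and Synpo2 at 0.293 CPM in all remaining cells. Both genes thus passed the filter on low counts of that fit through the positive cells. Itga1, an integrin chain, had 6 UMIs in positive and 10 in depth-matched cells, Actg2 (enteric smooth muscle actin) 2 and 2, and Acta1 (skeletal muscle actin) 1 and 1, and none of these 3 passed a test they entered.

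The broadly expressed members were higher by smaller factors. Cald1 stood at 522 CPM in proton, 793 CPM in photon and 814 CPM in control positive cells, against 152, 258 and 206 CPM in depth-matched cells of the same libraries (log2 fold change 1.78 ± 0.13, edgeR adjusted p = 7.31e-12). The tropomyosin Tpm2 stood at 261, 668 and 486 CPM in positive cells against 97.2, 235 and 174 CPM in depth-matched cells (1.501 ± 0.15, adjusted p = 2.87e-09). Tpm1 stood at 1169, 1793 and 1434 CPM against 576, 983 and 626 CPM (1.03 ± 0.12, adjusted p = 8.38e-08). In each of these 3 genes every library was higher in its positive cells.

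**Figure D3:**
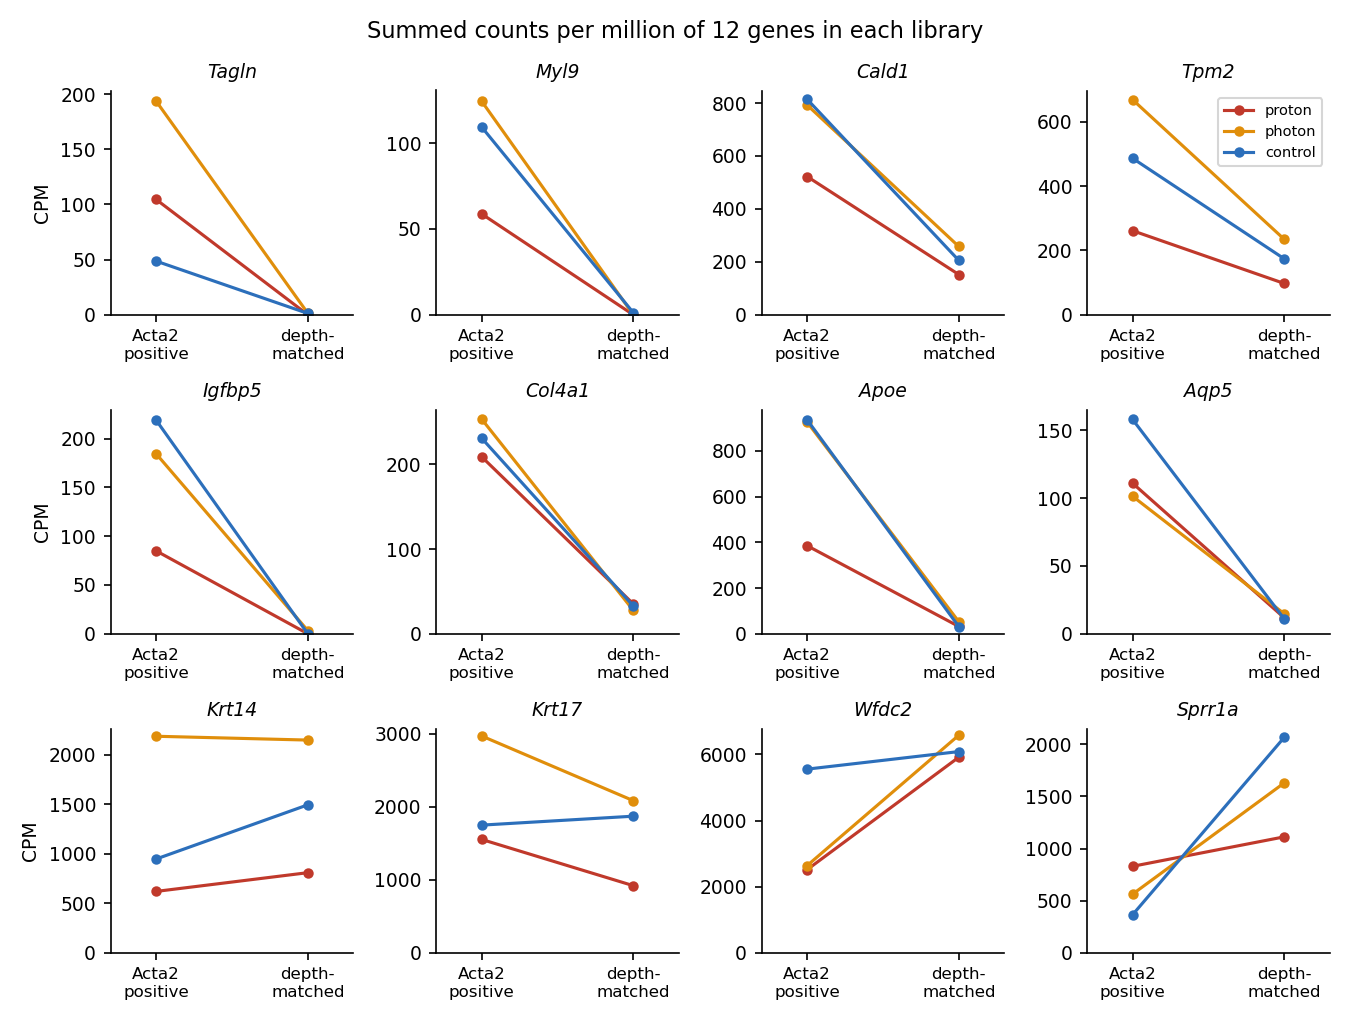
Each panel gives 1 gene, with CPM of counts summed over Acta2 positive cells on the left and over depth-matched cells on the right, and 1 line per library, on axes that start at 0. Tagln, Myl9, Cald1, Tpm2, Igfbp5, Col4a1, Apoe and Aqp5 were higher in the positive cells of all 3 libraries, Wfdc2 and Sprr1a were lower, and Krt14 and Krt17 moved in different directions between libraries.

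The second question was whether basal keratins came along. Detection of any 1 of them did not separate the classes, and nearly all cells of these cultures carried at least 1. At least 1 UMI of Krt5, Krt14, Krt15 or Krt17 was seen in 133 of 137 positive cells (97.1%, 92.7 to 99.2), against 93.9% (92.5 to 95.1) of depth-matched cells. Krt14, the basal partner of Krt5, stood at 620 CPM in proton, 2189 CPM in photon and 948 CPM in control positive cells, against 810, 2151 and 1496 CPM in depth-matched cells (log2 fold change -0.27 ± 0.13, edgeR adjusted p = 0.404). Krt5 stood at 790, 963 and 535 CPM against 750, 1087 and 955 CPM (-0.23 ± 0.14, adjusted p = 0.575). Krt15, at 255, 396 and 705 CPM against 206, 704 and 743 CPM, and Krt17, at 1554, 2973 and 1750 CPM against 920, 2086 and 1873 CPM, did not pass the test either (adjusted p = 0.498 and 0.0602). Of the 58 Krt15 UMIs in control positive cells, 38 came from 1 cell. In none of the 4 keratins did all 3 libraries lie on one side.

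The simple keratins of luminal duct cells, Krt8 and Krt18, were described by cells and by level. Cells with a basal keratin and no UMI of Krt8 or Krt18 made up 44 of 137 positive cells (32.1%, 24.4 to 40.6), against 223 of 1370 depth-matched cells (16.3%, 14.4 to 18.3). The share was 32.6% against 18.1% in the proton library, 35.2% against 14.5% in the photon library and 21.7% against 18.3% in the control library. The 2 intervals were apart in the photon library (24.2 to 47.5 and 12.0 to 17.3). They overlapped in the proton library (19.1 to 48.5 and 14.6 to 22.1). In the control library, with 23 positive cells, they overlapped as well (7.46 to 43.7 and 13.5 to 23.9). Krt18 stood at 562 CPM in proton, 737 CPM in photon and 1252 CPM in control positive cells against 899, 1296 and 962 CPM in depth-matched cells, so that the control library lay on the other side. For Krt8 the ratio of positive to depth-matched cells was 0.754 (0.570 to 0.981) in proton, 0.863 (0.676 to 1.09) in photon and 1.16 (0.770 to 1.68) in control cells. Krt19, another luminal keratin, had a UMI in 10.9% of positive and 8.03% of depth-matched cells. The difference in these shares was not tested.

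Of the 17 genes of the basal epithelium list, 16 were tested; 3 of them were higher and 0 lower, and the median log2 fold change was 0.22. The counts were 1 higher and 2 lower against all remaining cells (median -0.03), 1 and 0 without the filter, 2 and 2 when matched on the cluster (clusters are described below) and 2 and 3 within cluster 4. The higher members were Igfbp5 (below), Trp63, the master regulator of basal identity, and Itgb1, the beta chain of integrins. Trp63 stood at 209, 166 and 280 CPM in positive cells of the proton, photon and control libraries against 129, 98.2 and 182 CPM in depth-matched cells (0.71 ± 0.19, edgeR adjusted p = 0.0243), and Itgb1 had a log2 fold change of 0.52 ± 0.13 (adjusted p = 0.017). Both calls were lost without any 1 of the libraries, with adjusted p from 0.0898 to 0.466 for Trp63 and from 0.0663 to 0.295 for Itgb1. The integrins Itga6 and Itgb4, Col17a1, dystonin (Dst), the laminin chains Lama3 and Lamb3, and P-cadherin (Cdh3) did not pass the test, with log2 fold changes between -0.15 and 0.60. Itga3 also missed it (0.78 ± 0.24, adjusted p = 0.0648), and Sox11 had 1 UMI.

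The 12 genes with the highest log2 fold change beyond this were, besides Myl9 and Tagln, mostly not contractile. Igfbp5, a secreted binding protein of insulin-like growth factors, had UMIs in 28 positive cells and in 2 depth-matched cells, at 84.9 CPM in proton, 184 CPM in photon and 219 CPM in control positive cells against 0, 3.23 and 0 CPM. Its ratio was 101 (46.8 to 261) and its log2 fold change 6.57 ± 0.45 (edgeR adjusted p = 8.36e-13). All 28 of these positive cells belonged to 1 cluster, described below. Trf, which encodes the iron carrier transferrin, had a ratio of 143 (45.9 to 722), the proprotein convertase Pcsk5 82 (32.4 to 266), and the cGMP-dependent protein kinase Prkg1, which acts in smooth muscle relaxation, 46.2 (25.1 to 91.7).

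Crispld2 had a ratio of 42.5 (22.4 to 87.6), Ctnnd2, a delta catenin, 40 (20.3 to 85.9), Ntng1 35 (13.7 to 106), the cation channel Trpm3 19.7 (12.5 to 31.6) and the metalloprotease Adamts17 17.5 (8.22 to 39). Apoe, the lipid carrier apolipoprotein E, was the most abundant of the 12, at 385 CPM in proton, 926 CPM in photon and 936 CPM in control positive cells against 32, 53 and 31.6 CPM in depth-matched cells. Its log2 fold change was 4.17 ± 0.18 (edgeR adjusted p = 6.81e-19). All 12 genes stayed past the threshold without each library in turn, with adjusted p of at most 0.0123, and by DESeq2. Those fits used the same filter on low counts, so they are not separate support. Besides Apoe, the genes stood at 6.63 CPM or less in the pooled depth-matched cells and passed the filter through the positive cells. Without the filter all 12 were past the threshold as well (edgeR adjusted p of at most 5.10e-07).

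In the matrix and migration list 16 of 22 genes were tested; 8 of them were higher and 2 lower, and the median log2 fold change was 0.88. Summed over the list, the level was lower in positive cells of each library, at 10109 CPM in proton, 10204 CPM in photon and 8594 CPM in control positive cells against 13094, 12932 and 9339 CPM in depth-matched cells, and S100a6 was its most abundant member. Col4a1, a chain of type IV collagen, stood at 209 CPM in proton, 253 CPM in photon and 231 CPM in control positive cells against 35.2, 27.6 and 32.8 CPM in depth-matched cells (2.91 ± 0.23, edgeR adjusted p = 1.78e-11). Its partner Col4a2 had a log2 fold change of 2.52 ± 0.28 and the matrix protein Sparc one of 2.24 ± 0.18. The filament protein vimentin (Vim) had one of 1.498 ± 0.27 (adjusted p = 0.000355, and 0.151 without the proton library). Its 31 UMIs in proton positive cells lay in 6 cells, and 12 of them came from 1 cell. Fibronectin (Fn1) was higher as well (1.73 ± 0.28, adjusted p = 5.86e-05), with 294 CPM in proton, 41.5 CPM in photon and 377 CPM in control positive cells against 83.5, 41.5 and 51.1 CPM in depth-matched cells, but 28 of its 45 UMIs in the proton library came from 1 cell. Thrombospondin (Thbs1, 0.96 ± 0.16), the galectin Lgals1 (0.96 ± 0.16) and tenascin (Tnc, 0.80 ± 0.22) were the other higher members, and without the photon library neither Lgals1 (adjusted p = 0.181) nor Tnc (0.609) passed. Tnc was also lost without the proton library (0.556). The calcium-binding S100a6 and the annexin Anxa1 were the 2 lower members (-0.57 ± 0.11 and -0.54 ± 0.12), and without the photon library they did not pass (adjusted p = 0.139 and 0.122). S100a6 was also lost without the proton library (0.135) and Anxa1 without the control library (0.141).

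In the non-muscle actin cytoskeleton list 21 of 22 genes were tested; 7 of them were higher and 0 lower, and the median log2 fold change was 0.49. The cytoplasmic actins Actb (1.03 ± 0.11, edgeR adjusted p = 4.89e-08) and Actg1 (0.84 ± 0.12, adjusted p = 4.67e-06), the light chain Myl6 (0.83 ± 0.12) and the actin-sequestering thymosin Tmsb4x (1.48 ± 0.13) were its most abundant members, and each was higher in all 3 libraries. Actb stood at 3076, 2696 and 2200 CPM in proton, photon and control positive cells against 1291, 1445 and 1211 CPM in depth-matched cells. The crosslinkers filamin A (Flna, 1.14) and alpha actinin (Actn4, 0.62) and the non-muscle calponin Cnn2 (1.15) completed the 7, but without the photon library they did not pass (adjusted p = 0.0519, 0.467 and 0.101), nor without the proton library (0.0951, 0.193 and 0.23).

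Among SRF, its cofactors and genes downstream of them, 9 of 12 were tested; 3 of them were higher and 0 lower, and the median log2 fold change was 0.29. The higher ones were the matricellular Ccn2 (1.20 ± 0.15, edgeR adjusted p = 1.09e-06) and Ccn1 (1.26 ± 0.21, adjusted p = 8.22e-05, and 0.358 without the photon library) and the focal adhesion protein vinculin, Vcl (0.78 ± 0.14, adjusted p = 0.000324). The cofactors Mrtfa (0.06 ± 0.28) and Mrtfb (0.29 ± 0.27) did not pass the test, Myocd had 0 UMIs in positive cells, and Srf was too low for the filtered test. Of 14 immediate early genes tested, Fos (1.15 ± 0.16) and Egr1 (1.43 ± 0.19) were higher and none (0) lower. Without the photon library neither passed (adjusted p = 0.193 and 0.0512). Of 10 TGF-beta pathway genes tested, none (0) was called in either direction, and their median log2 fold change was -0.22. Of 13 p53 target genes, Fas was higher and the cell cycle inhibitor Cdkn1a and Trp53inp1 were lower, and without the photon library none (0) of these calls held (adjusted p = 0.733, 0.84 and 0.494). Fas was also lost without the proton (0.132) or the control library (0.0966), and Cdkn1a without the control library (0.0855). Of 9 S phase genes none (0) was called, and of 11 G2 and M phase genes the tubulin Tubb4b was lower (-0.74 ± 0.19, adjusted p = 0.0213, 0.499 without the photon and 0.205 without the proton library).

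Of 12 luminal duct genes tested, whose median log2 fold change was -0.43, Lcn2 was higher (0.67 ± 0.12, edgeR adjusted p = 0.000324) and the secreted Wfdc2 lower (-0.89 ± 0.14, adjusted p = 3.24e-05). Wfdc2 stood at 2514, 2636 and 5555 CPM in proton, photon and control positive cells against 5915, 6581 and 6086 CPM in depth-matched cells. Of the 457 Wfdc2 UMIs in control positive cells, 263 came from 1 cell. Neither call held without the photon library (adjusted p = 0.202 and 0.205). Lcn2 stayed the 1 higher gene in other fits, while 5 of 12 were lower against all remaining cells, 4 of 14 without the filter and 6 of 10 with at least 2 Acta2 UMIs. The water channel Aqp5, known from acini and intercalated ducts, stood at 111 CPM in proton, 101 CPM in photon and 158 CPM in control positive cells against 11.7, 14.7 and 10.9 CPM (3.16 ± 0.32, adjusted p = 6.01e-09), and 10 of its 13 UMIs in control positive cells came from 1 cell. Salivary amylase (Amy1) had 1 UMI in all positive cells against 137 in depth-matched cells and was lower (adjusted p = 0.00904), which did not hold without the photon (0.298) or the control library (0.103). Of 5 squamous genes tested, Sprr1a and Sprr1b were lower (values below) and 0 higher, with a median log2 fold change of -0.63.

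The 12 genes with the lowest log2 fold change were Fabp4, Ccl5, Zfp809, Nos1ap, Ppargc1a, Ccdc141, Sprr1b, Deptor, Sprr1a, Rab27b, Cxcl5 and Ahr, with log2 fold changes from -3.13 to -1.24. Sprr1a, a cornified envelope protein of squamous cells, was the most abundant. It stood at 829 CPM in proton, 562 CPM in photon and 365 CPM in control positive cells against 1112, 1629 and 2066 CPM in depth-matched cells (-1.32 ± 0.19, edgeR adjusted p = 6.2e-06). Fabp4, a fatty acid carrier, stood at 19.6, 9.22 and 0 CPM against 52.9, 163 and 30.4 CPM (-3.13 ± 0.48, adjusted p = 2.54e-05). Without the photon library none (0) of the 12 passed the test (adjusted p from 0.0992 to 0.649), and by DESeq2 only Fabp4, Ppargc1a and Ahr did. Zfp809, Ccdc141, Sprr1b, Deptor, Rab27b and Cxcl5 were also lost without the proton library, and Zfp809, Nos1ap, Ccdc141, Rab27b and Cxcl5 without the control library.

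Listed markers of other cell types were sparse in both classes, and some had UMIs in positive cells. Of 10 fibroblast markers, Col1a1, Col1a2, Col3a1, Lum, Pdgfra and Dpt had 0 UMIs in every positive cell. Col1a2, Col3a1, Lum and Pdgfra had 0 in every depth-matched cell as well. Dcn, Postn and Col6a1 made up the 5 UMIs of the list in photon positive cells, and Dcn and Postn the 2 in control positive cells. The summed level of the list was 0 CPM in proton, 23.04 CPM in photon and 24.3 CPM in control positive cells, against 4.57, 10.1 and 13.4 CPM in depth-matched cells. Of 9 markers of pericytes and vascular smooth muscle, Rgs5, Pdgfrb, Kcnj8, Abcc9, Vtn and Higd1b were at 0. The list summed to 32.7, 50.7 and 0 CPM in proton, photon and control positive cells against 58.7, 32.7 and 18.2 CPM. Notch3 and Mcam made up the sum in proton positive cells, and Notch3, Cspg4 and Mcam that in photon positive cells. The endothelial list summed to 26.1, 9.22 and 0 CPM against 7.83, 13.4 and 10.9 CPM, all of it from Egfl7 in positive cells. The immune list summed to 6.53, 0 and 109 CPM against 0, 1.38 and 0 CPM, and 9 Lyz2 UMIs of 1 control cell made up the highest of these values.

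Sox10, a transcription factor of glia that also marks acinar, intercalated duct and myoepithelial lineages of the mouse salivary gland, had 13 UMIs in positive cells (6 proton, 4 photon, 3 control). It had 2 UMIs in depth-matched cells, a ratio of 65.0 (14.7 to 593), and 25 in all remaining cells. It was too low for the filtered test and passed against all remaining cells (edgeR adjusted p = 5.15e-10). With so few UMIs in the remaining cells, Sox10 passed the filter on low counts of that fit through the positive cells. The glial gene Gfap had 0 UMIs in positive cells, and the neural and glial list, Sox10 included, summed to 71.8, 27.7 and 48.6 CPM in proton, photon and control positive cells against 42.4, 17.5 and 21.9 CPM in depth-matched cells.

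The positive cells were then placed among clusters of all kept cells, built without the contractile, cell cycle, interferon, p53 and immediate early lists. Cluster 4 held 86 of the 137 positive cells (62.8%) and 44 of the 52 cells with at least 2 Acta2 UMIs, within 4243 cells (10.1% of all). Its leading genes were Krtdap, Igfbp2 and Apoe. Within it 2.03% (1.62 to 2.50) of cells were positive, at a median of 2714 UMIs. With the libraries pooled, the share was 0.0584% (0.0214 to 0.127) in cluster 0, 0.132% in cluster 1, 0.172% in cluster 2, 0.217% (0.124 to 0.352) in cluster 3 and 0.115% in cluster 5, with no positive cell (0) among the 218 cells of cluster 6, which allows a share of up to 1.38%. Control cells made up 7329 of the 10276 cells of cluster 0, and by library its share was 0.153% in proton, 0.0872% in photon and 0.0409% in control cells, so no order is read among these clusters. How much free RNA adds to shares this low was not tested. Of the 6 positive cells of cluster 0, all held 1 Acta2 UMI.

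With the libraries pooled, at least 1 of the 5 contractile genes was seen in 35 of 86 positive cells in cluster 4 (40.7%, 30.2 to 51.8). Elsewhere it was seen in 5 of 51 positive cells (9.80%, 3.26 to 21.4), although those elsewhere were deeper (median 3861 UMIs against 2254). By library, the counts in cluster 4 and elsewhere were 22 of 49 and 1 of 22 in photon cells, and 7 of 13 and 0 of 10 in control cells. In proton cells they were 6 of 24 and 4 of 19, with widely overlapping intervals (9.77 to 46.7 and 6.05 to 45.6). The pooled contrast thus came from the photon and control libraries and was not seen in the proton library. Trf and Igfbp5 had 0 UMIs in the 51 positive cells outside cluster 4. The high Acta2 cells outside it included a proton cell of cluster 3 with 20 Acta2 UMIs, 12549 UMIs in all and 55 UMIs of Tpm1.

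**Figure D4:**
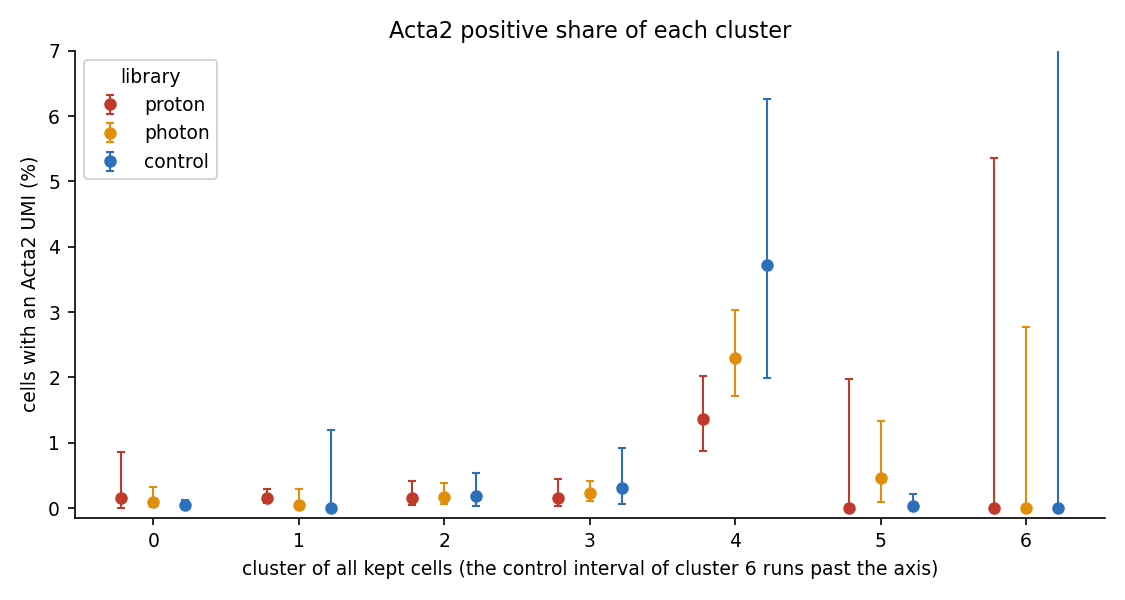
Points give the percentage of cells with an Acta2 UMI in each of 7 clusters (0 to 6) of the proton, photon and control libraries, with exact 95% binomial intervals. Cluster 4 has the highest share in each library, at 1.36% in proton, 2.30% in photon and 3.71% in control cells. The intervals of cluster 6, which held no positive cell, reach above these shares in each library. That of cluster 5 does so in the proton library.

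Since positive cells gathered in cluster 4, they were also compared with remaining cells matched on library, cluster and depth. This test, added after the clusters had been seen, called 160 genes higher (2.36% of 6781) and 53 lower (0.782%), of which 131 and 20 were among those called without matching on the cluster. Among cells of cluster 4 alone, 162 were higher (4.14% of 3911) and 73 lower (1.87%). Tagln had a log2 fold change of 7.69 and Myl9 one of 6.40 within cluster 4 (edgeR adjusted p = 7.15e-48 and 6.93e-35). Those of Col4a1 (3.13) and Cald1 (1.21) were also past the threshold there. Apoe, at 4.17 against depth-matched cells, came to 2.13 within cluster 4, Aqp5 at 3.16 to 1.86, and Igfbp5 at 6.57 to 4.22. The other highest genes also had lower values within cluster 4. Trf came to 3.66 there, against 6.88 over all clusters, Pcsk5 to 2.96 against 6.20, Prkg1 to 2.61 against 5.48 and Ntng1 to 2.86 against 5.00. Crispld2 came to 4.10 against 5.34, Ctnnd2 to 4.08 against 5.26, Trpm3 to 2.61 against 4.29 and Adamts17 to 2.46 against 4.07, and all 8 stayed past the threshold. Of 5 squamous genes tested within cluster 4, 5 were lower and none (0) higher.

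Restricted to cells with at least 2 Acta2 UMIs and cells matched to them, 140 genes were higher (3.74% of 3741) and 87 lower (2.33%). There, the log2 fold changes of Cald1 (2.46 against 1.78 for all positive cells), Tpm2 (2.35 against 1.501), Col4a1 (4.00 against 2.91) and Apoe (5.27 against 4.17) were higher, and that of Wfdc2 was lower (-2.07 against -0.89). These cells are part of the positive cells, so the 2 sets of values share data and their difference was not tested.

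The share of Acta2 positive cells was 0.308% (0.223 to 0.415) in the proton library, 0.472% (0.369 to 0.595) in the photon library and 0.174% (0.110 to 0.261) in the control library. These shares are a description of 3 libraries, and the intervals cover counting error only. After each cell was thinned to 2000 UMIs the shares were 0.252% (0.154 to 0.389) in proton, 0.275% (0.186 to 0.393) in photon and 0.114% (0.0571 to 0.205) in control cells, all 3 intervals overlapping, with 6017, 4150 and 3599 shallower cells left out. With at least 2 Acta2 UMIs they were 0.0788%, 0.206% and 0.0756%. Within cluster 4 the order of the libraries was another one: 24 of 1766 proton cells (1.36%, 0.873 to 2.02), 49 of 2127 photon cells (2.30%, 1.71 to 3.03) and 13 of 350 control cells (3.71%, 1.99 to 6.27) were positive. With 1 library a group, irradiation and library cannot be told apart.

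Within positive cells, libraries were compared by the ratio of summed CPM, counting genes whose CPM averaged 100 or more and differed by 1.5-fold or more. In photon over control, 231 of 1788 genes (12.9%) were higher and 355 (19.9%) lower. In proton over control, 417 of 1894 (22%) were higher and 469 (24.8%) lower, and in proton over photon 514 of 1817 (28.3%) were higher and 425 (23.4%) lower. The first 2 comparisons share the 23 control cells. With 82269 UMIs in those cells, a CPM of 100 is about 8 UMIs, so counts of this size hold much counting error.

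Genes of the interferon response were higher in the positive cells of both irradiated libraries. Of 20 listed genes, 7 were abundant enough in each comparison, and 7 of 7 were higher in photon over control (median log2 ratio 3.71, against -0.06 over all genes) and in proton over control (3.15, against -0.02). Over all genes compared, 12.9% and 22% were higher. A gene low in control cells is abundant enough only through the irradiated library, and its direction is then set by that limit. Summed over all 20 genes, the list stood at 9515 CPM in proton, 9932 CPM in photon and 741 CPM in control positive cells. In depth-matched cells the median log2 ratios of the same genes, photon and proton over control, were 4.07 and 3.85. Ifi27l2a, an interferon-induced mitochondrial protein, stood at 5342 CPM in proton and 4125 CPM in photon positive cells against 146 CPM in control positive cells, ratios of 36.6 (20.9 to 71.2) and 28.3 (16.1 to 54.9). Isg15, which is conjugated to proteins like ubiquitin, had 529 CPM in proton and 1272 CPM in photon against 97.2 CPM in control positive cells, where 5 of its 8 UMIs came from 1 cell. Irf7, Ifit3 and Bst2 were also among the highest 6 in photon over control, with ratios of 22.4 (3.86 to 898), 15.9 (2.71 to 644) and 8.99 (5.28 to 16.6). Irf7 and Ifit3 each had 1 UMI in control positive cells, and 7 of the 14 Bst2 UMIs there came from 1 cell. Between positive and depth-matched cells 19 of the 20 interferon genes did not pass the test, and the chemokine Ccl5 was the 1 lower (-1.79 ± 0.33, edgeR adjusted p = 0.000331, and 0.407 without the photon library), with 9 of its 16 UMIs in positive cells from 1 cell.

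Ifi27 went the other way, at 19.6 CPM in proton and 32.3 CPM in photon against 255 CPM in control positive cells, and likewise in depth-matched cells (23.5, 30.9 and 189 CPM). Chil1, a chitinase-like protein, had 1 UMI in proton, 8 in photon and 21 in control positive cells. Depth-matched cells held 9, 6 and 0 UMIs of it in the same libraries. The 21 control UMIs were spread over 8 cells, with at most 4 in any cell. The heme oxygenase Hmox1 stood at 32.7 CPM in proton and 59.9 CPM in photon against 292 CPM in control positive cells, while depth-matched cells held 22.8, 54.8 and 47.4 CPM. The ratio of proton over control in positive cells was 0.112 (0.0334 to 0.299).

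**Figure D5:**
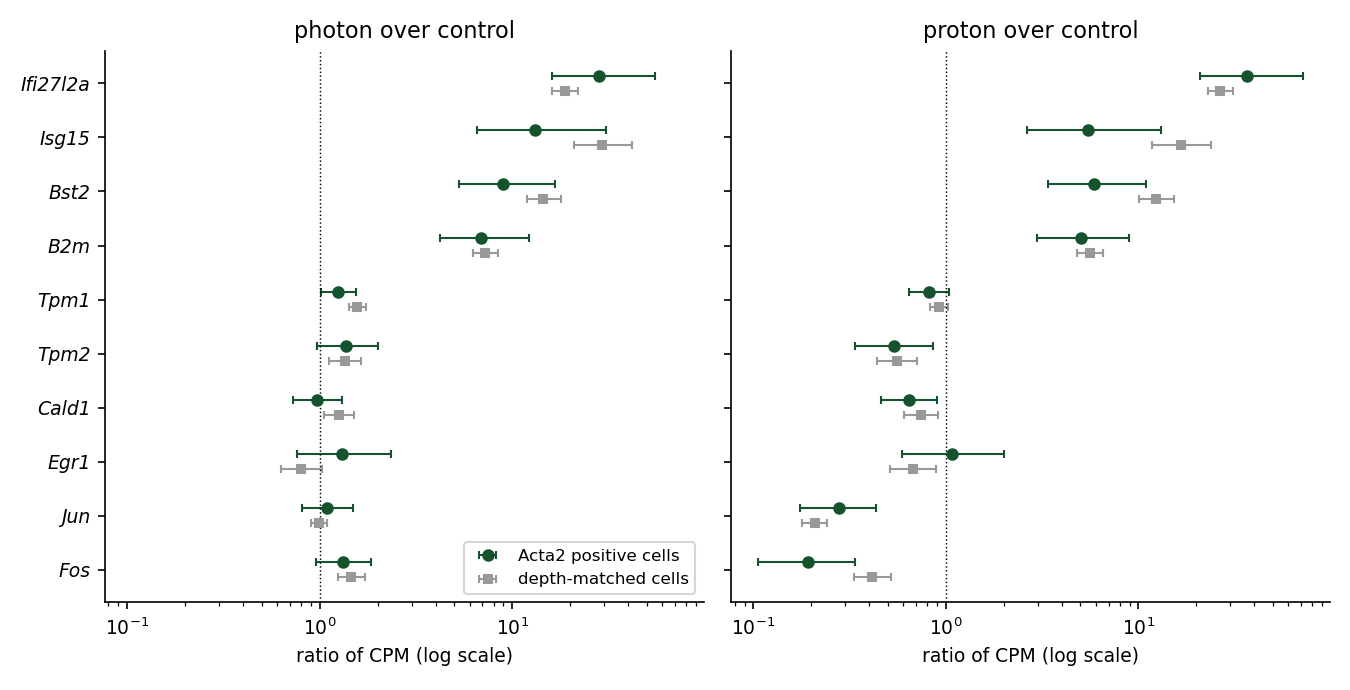
Points give the ratio of CPM on a log axis for photon over control and proton over control, in Acta2 positive cells (circles) and depth-matched cells (squares), with exact 95% Poisson intervals. Interferon genes lie well above 1 in both classes, and Jun and Fos lie below 1 in proton over control, at 0.278 and 0.193 in positive cells.

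Immediate early genes were lower in the positive cells of the proton library, where 8 of 11 fell below control (median log2 ratio -1.63) and 6 of 9 below photon (-1.58). Over all genes compared, 24.8% were lower in proton over control and 23.4% in proton over photon. The same immediate early genes had medians of -0.85 and -1.03 in depth-matched cells. Fos stood at 118 CPM in proton and 802 CPM in photon against 608 CPM in control positive cells, where 26 of its 50 UMIs came from 1 cell. In photon over control none (0) of 11 reached the fold in either direction (12.9% higher and 19.9% lower over all genes compared).

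Of the 18 contractile genes listed, 4 were abundant enough to compare proton with photon positive cells, and all 4 were lower in proton. Over all genes compared, 425 of 1817 (23.4%) were lower. The 4 were Tagln at a ratio of 0.540 (0.283 to 0.980), Tpm2 at 0.391 (0.268 to 0.558), Tpm1 at 0.652 (0.543 to 0.780) and Cald1 at 0.659 (0.499 to 0.864). Their median log2 ratio was -0.753, and -0.768 in depth-matched cells. Less abundant members went both ways. Cnn1 stood at 32.7 CPM in proton and 18.4 CPM in photon positive cells, and Mylk at 19.6 and 36.9 CPM. In depth-matched cells the ratios of Tpm2, Tpm1 and Cald1 were 0.415, 0.585 and 0.589. In photon over control 1 of 5 was higher (12.9% over all genes compared), Tagln at 3.98 (1.44 to 15.3), and none (0) lower (19.9%). Of the 42 Tagln UMIs in photon positive cells, 12 came from 1 cell and 11 from another. Control positive cells held 4 Tagln UMIs in 2 cells. Cluster 4 held 55.8% of proton, 69.0% of photon and 56.5% of control positive cells, and the part of this mixture in the ratios was not tested.

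Among the highest ratios of proton over photon, Sorbs2 (26.9, 6.96 to 230), Dmd (13.1, 4.71 to 50.6) and Fn1 (7.08) rested on few cells. Of 38 Sorbs2 UMIs in proton positive cells 25 came from 1 cell, of 37 Dmd UMIs 29 came from 1 cell, and of 45 Fn1 UMIs 28 came from 1 cell. Without cells above the 95th percentile of UMIs, the log2 ratios of Sorbs2 and Fn1 turned to -0.49 and -0.13. Lars2, Dyrk1a and Galnt18 followed with ratios of 6.70, 5.28 and 5.15, each spread over at least 16 proton cells. Among the lowest ratios of proton over photon were Stmn1 (0.142), Fos (0.147), Uqcrfs1 (0.192) and the lysosomal protease Ctsl (0.228), and for Ctsl the depth-matched cells gave 0.295.

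Other genes at the ends of these rankings were as follows. In photon over control, Fn1 (0.110), the chaperone clusterin (Clu, 0.218) and Cpne1 (0.253) were among the lowest 6, and 15 of the 33 Clu UMIs in control positive cells came from 1 cell. In proton over control, Dmd (19.9, 3.35 to 806), the retinol transporter Stra6 (15.6, 2.58 to 636) and Rnf213 (9.49, 3.08 to 47.5) had 1, 1 and 3 control UMIs and were among the highest 6, and the cold-induced RNA-binding protein Cirbp (0.0767), Herpud1 of the endoplasmic reticulum stress response (0.179) and the actin-severing gelsolin (Gsn, 0.179) among the lowest 6. In proton over photon, the disulfide isomerase Pdia6 (0.225) was also among the lowest 6.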

How the data were processed

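Single-cell counts came from 3 libraries (proton, photon, control), handled on the same day per the labels. The authors deposited unnormalised UMI counts per gene and barcode. Cell Ranger 7.0.1 and mm10 are named per the submitters' processing notes; the matrices' own headers give 7.0.0. How barcodes were called as cells, and whether intronic reads were counted, is not stated in those sources. Deposited totals were 37116107 UMIs in 14525 barcodes (proton), 47514102 in 15926 (photon) and 40166701 in 14266 (control). Of 44717 barcodes, 42216 were kept. Another 3 barcodes with an Acta2 UMI, 1 per library, failed the filters.

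Counts were summed per library and class and tested with edgeR 4.0.16 (R 4.3.3): TMM, filterByExpr, quasi-likelihood fit, library as a block, Benjamini-Hochberg adjustment. The block pairs both classes of a library, which share pooled animals, day and preparation. With only 3 libraries, which differ in treatment, edgeR estimates the spread of a gene with help from all genes tested. The size of a very small p-value is thus not a measure of replication between libraries. For Tagln the edgeR adjusted p was 1.08e-12 with the filter on low counts and 1.50e-40 without it. Standard errors are the log2 fold change divided by the square root of F, and are approximate. DESeq2 1.42.0 was an alternative. Libraries were compared by CPM ratios, with no test, as each group is 1 library. Clusters came from scanpy 1.11.5 and leidenalg 0.10.2 (2000 variable genes, 30 components, 20 neighbours, resolution 0.5). Shares and ratios carry exact intervals (Clopper-Pearson, conditional binomial) that cover counting error only, and a count of 0 allows up to 3 counts. The fit was tested on simulated data.

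Genes named are all members of the contractile and basal lists, up to 4 members of highest level and called members of other lists, the 12 highest and 12 lowest log2 fold changes among genes past the threshold with a mean CPM of at least 25 and the same direction in all libraries, and the 6 highest and 6 lowest ratios between libraries. Col4a1, Col4a2, Sparc, Vim, Fn1 and Egr1 were named as called members after their values were seen, as were the cells and genes singled out for resting on 1 cell. A few genes that this rule names are not reported here, though list counts and sums include them. The members and the 19 gene lists were chosen with earlier results of these data known. Coordinates are GENCODE M21 (GRCm38).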

Additional observations from a re-analysis of the deposited data

How the results depend on the processing

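The counts of genes higher and lower in Acta2 positive than in depth-matched cells (167 and 57) came to 94 and 33 with 3 matched cells per positive cell, 101 and 12 with DESeq2, and 109 and 27 with at least 1000 detected genes. Lower counts were 225 against all remaining cells, 104 without the filter on low counts and 87 with at least 2 Acta2 UMIs. With no replicate block, so that both classes of a library are not paired, they were 50 and 0. Leaving out each library gave 59 to 146 higher and 3 to 41 lower, and against all remaining cells 89 to 160 and 66 to 136. All 167 higher and 57 lower genes kept their sign without TMM and with DESeq2, and the cause of the smaller counts was not tested.

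The fits matched on the cluster, those within cluster 4 and the left-out libraries against all remaining cells were chosen after seeing the data. Single genes turned round as follows: Ccl5 to 0.28 and Krt17 to -0.41 within cluster 4; Itga6 to -0.00079 and Lama3 to -0.051 against all remaining cells; Itgb4 to 0.10 with at least 2 Acta2 UMIs; Cdh3 to 0.079 when matched on the cluster. Leaving out each library gave -0.47 to 0.093 for Krt15, -0.51 to 0.087 for Itgb4, -0.17 to 0.52 for Lama3 and -0.40 to 0.10 for Cdh3, the sign turning without the photon library for the first 3 and without the proton library for Cdh3. In proton over photon, Sorbs2 came to -0.49 and Fn1 to -0.13 without the deepest cells.

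Positive shares moved to 0.0788% (proton), 0.206% (photon) and 0.0756% (control) with at least 2 Acta2 UMIs, and in photon to 0.275% at 2000 UMIs per cell. The mean difference in the share of cells with a UMI came to 2.59 and 1.33 percentage points for Cnn1 and 5.24 and 3.82 for Mylk at 2000 and 1000 UMIs, and to 6.79 for Tagln at 1000. Between libraries, at a fold of 2 the genes higher and lower were 80 and 124 (photon over control), 198 and 237 (proton over control) and 283 and 181 (proton over photon). At a mean CPM of 50 they were 520 and 949, 899 and 1006, and 1118 and 804, and at 200 they were 103 and 102, 155 and 184, and 147 and 210. Depth limits all values for genes under a few UMIs, and 23 control cells limit every ratio over control.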
